A study of Mus musculus with 12 samples.

Results

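The endoplasmic reticulum (ER) chaperones described here are 10 genes whose products fold, modify or retain secreted proteins: Hspa5, Hsp90b1, Sdf2l1, Dnajb9, Dnajb11, Dnajc3, Pdia4, Pdia6, Calr and Creld2. They were taken by symbol from an array of mouse ascending aorta, using the probe set of highest mean for each gene. All 10 were measured, out of 19938 genes that have a probe set with a single symbol, and all 10 were among the 14944 genes bright enough to be tested. The study crossed a heterozygous fibrillin-1 mutation, a mouse model of Marfan syndrome, with an inducible deletion of Tgfbr2, the type II receptor for TGF-β, and hybridised 12 arrays in 4 groups of 3. Mice of all groups carried Myh11-CreERT2 and 2 floxed copies of Tgfbr2 (written Tgfbr2f/f), so the controls held the unrecombined allele and the Cre transgene. Injections began at 4 weeks of age and were given for 5 days, and the ascending aorta was taken at 6 weeks.

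The mutant knockout group was Fbn1C1039G/+ and received 1 mg of tamoxifen. The wild-type knockout group had wild-type Fbn1 and the same tamoxifen. The mutant control group was Fbn1C1039G/+ and received corn oil, and the wild-type control group had wild-type Fbn1 and corn oil. Myh11 is a smooth muscle gene, so the deletion was directed to smooth muscle cells, and the receptor was not measured by cell type. Every knockout comparison is also a comparison of tamoxifen with corn oil, and these cannot be told apart. For knockout replicates 2 and 3 the sample descriptions name other receptor numbers, and the titles, which give Tgfbr2 throughout, were followed. Nothing in the labels ties an array to its own mouse, so p-values measure the spread between these arrays, which may be technical.

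Proteins bound for secretion enter the ER lumen unfolded. BiP, the product of Hspa5, holds them there with J-domain partners that set its ATP cycle, while Hsp90b1 (GRP94), the lectin chaperone calreticulin (Calr) and the disulfide isomerases complete folding. When unfolded protein accumulates, the sensors IRE1, PERK and ATF6 start the unfolded protein response, and ATF6 and XBP1 raise transcription of these chaperones. In the aortic media this machinery serves smooth muscle cells that secrete elastin, collagens and fibrillin.

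The arrays were closely alike. Median linear intensity per array lay between 301 and 334, Pearson correlation of all probe sets between arrays of a group was 0.995 to 0.997, and between arrays of different groups it was 0.991 to 0.996. Smooth muscle markers averaged 13.3 to 13.4 in log2 intensity on all 12 arrays, although single markers differed between groups. Myocd fell by 0.28 with deletion in mutants (limma adjusted p = 0.0138) and was lower in mutant than in wild-type knockouts (-0.25, adjusted p = 0.034). Actg2 rose with deletion by 0.30 in mutants and 0.31 in wild-types. Smtn and Lmod1 fell with deletion in wild-types (-0.17 and -0.18), and Synpo2 was lower in mutant than in wild-type controls (-0.22). Tgfbr2 read 12.05, 12.07 and 11.98 in the mutant knockout, 11.88, 11.95 and 11.79 in the wild-type knockout, 12.04, 11.98 and 11.95 in the mutant control, and 11.96, 11.96 and 11.94 in the wild-type control (log2). The knockout minus control difference was 0.04 in mutants (limma adjusted p = 0.594) and -0.08 in wild-types (adjusted p = 0.324). Where its probes lie relative to the deleted exon is not given in the sources used here, so this level does not check the labels. Ucp1, a brown fat marker, was high on the array of mutant knockout 1 (8.21) and of mutant control 3 (8.58), and lay between 6.75 and 7.30 on the other 10. Results that change without those arrays are given with and without them.

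The best known regulatory sequence of these genes is the ER stress response element, to which ATF6 and XBP1 bind together with NF-Y. It was searched in the RefSeq promoter window of every mouse gene (GRCm38.p6, 250 bases before to 50 after the annotated start) on both strands as CCAAT, any 9 bases, then CCACG. The element was present in 6 of the 10 chaperone genes and in 0.119% of all 32851 promoter windows, which is 39 windows. The 7 copies are shown because they are what these members share in their promoters. Each line runs 5′ to 3′ on the strand of the gene with the element in capitals, so an element on the other strand reads CGTGG, 9 bases, ATTGG.
Hspa5, chr2:34772000-34772068, plus strand: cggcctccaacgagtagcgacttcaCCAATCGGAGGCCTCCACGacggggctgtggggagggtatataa
Hsp90b1, chr10:86705613-86705681, minus strand: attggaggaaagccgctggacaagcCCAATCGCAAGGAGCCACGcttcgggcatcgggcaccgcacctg
Hsp90b1, chr10:86705508-86705576, minus strand: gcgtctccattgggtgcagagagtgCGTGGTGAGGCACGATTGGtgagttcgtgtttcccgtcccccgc
Dnajc3, chr14:118937802-118937870, plus strand: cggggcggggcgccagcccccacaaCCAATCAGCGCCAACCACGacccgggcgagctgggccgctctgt
Pdia6, chr12:17266466-17266534, plus strand: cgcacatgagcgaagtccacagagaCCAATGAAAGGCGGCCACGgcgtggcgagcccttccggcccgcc
Calr, chr8:84847050-84847118, minus strand: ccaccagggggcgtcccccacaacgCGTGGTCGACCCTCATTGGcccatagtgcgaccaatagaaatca
Creld2, chr15:88819495-88819563, plus strand: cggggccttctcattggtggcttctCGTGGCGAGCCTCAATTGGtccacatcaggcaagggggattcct

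The first base of the element lay 65 bases before the start site in Hspa5, 212 and 107 in Hsp90b1, 105 in Dnajc3, 98 in Pdia6, 162 in Calr and 126 in Creld2. Dnajb11 held the second form of the element instead (ATTGG, any 1 base, then CCACG), in the run ATTGGCCCACG at chr16:22857852-22857862, which begins 7 bases after the start site. That form was in 0.0365% of promoter windows. The windows of Sdf2l1, Dnajb9 and Pdia4 held neither form, and TGACGTGG, the unfolded protein response element, was in 0 of the 10 and in 0.676% of all windows. A match is a run of letters in this window and not a shown binding site.

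**Figure D1:**
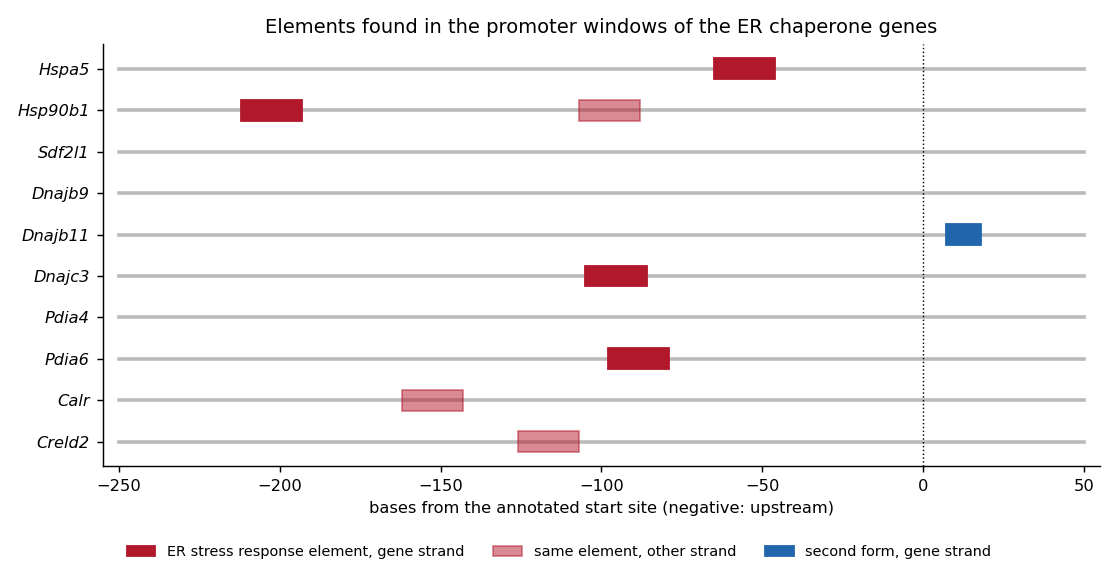
Position of the 2 forms of the ER stress response element in the promoter windows of the 10 genes, in bases from the annotated start site. Solid red boxes mark the element on the gene's strand, pale red boxes the element on the other strand, and the blue box the second form; 6 genes have a red box, with 2 in Hsp90b1, and Dnajb11 has the blue one.

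Of the comparisons made, the one between Fbn1 genotypes among the knockouts called the most chaperones. With Tgfbr2 deleted, 5 of 10 chaperones were lower in Fbn1 mutants than in wild-types at a limma adjusted p under 0.05 over all genes tested, and 0 were higher. In that comparison 3.16% of all genes were called lower and 2.80% higher. The 5 were Sdf2l1, Hspa5, Creld2, Dnajc3 and Dnajb11, lower by 16.1% to 40.6%. The median log2 difference of the 10 was -0.25, against 0.01 over all genes tested, and all 10 estimates were below 0. Leaving out 1 array gave 3 to 6 calls, with 3 without wild-type knockout 2 or 3 or mutant knockout 1 or 3, and there were 3 without both Ucp1-high arrays.

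Between the control arrays 3 of 10 chaperones were lower in Fbn1 mutants than in wild-types and 0 were higher, where 3.33% of all genes were called lower and 3.17% higher. These were Sdf2l1, Hspa5 and Dnajc3, all of which were also called among the knockouts. The median of the 10 was -0.08, against -0.02 over all genes, with 6 estimates below 0 and 4 above. The count was 1 without mutant control 2, where Sdf2l1 alone was called.

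Tgfbr2 deletion in the wild-type was followed by a rise of 3 of 10 chaperones, Sdf2l1, Creld2 and Dnajb11, and a fall of 0. Of all genes 9.17% rose and 9.66% fell in that comparison, and the median of the 10 was 0.06, against -0.01 over all genes. In Fbn1 mutants 1 of 10 rose with deletion, Sdf2l1, and 0 fell, where 7.66% of all genes rose and 5.77% fell. There the median of the 10 was -0.08, against 0.03. The count in wild-types was 1 without wild-type knockout 3, wild-type control 2, mutant knockout 1, mutant knockout 2 or mutant control 2, and the count in mutants was 0 without mutant knockout 1 or 2 or mutant control 1 or 2. Without both Ucp1-high arrays the counts were 0 in mutants and 1 in wild-types, Sdf2l1. The 2 knockout comparisons use different arrays, but each shares its arrays with the comparisons between genotypes above.

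Tested directly, the knockout effect of no chaperone differed between the genotypes after adjustment in limma: 0 of 10 were called, where 0.401% of all genes were called with a higher and 1.08% with a lower effect in mutants. At an unadjusted p under 0.05 there were 3, Creld2, Dnajb11 and Pdia6. Mutant knockout set against wild-type control differed in both alleles, and 2 of 10 chaperones, Hspa5 and Dnajc3, were lower there and 0 higher, where 11.9% of all genes were lower and 11.4% higher. Across these 6 comparisons 5 of the 10 chaperones were called at least once, where 36.0% of all genes were, and Hsp90b1, Dnajb9, Pdia4, Pdia6 and Calr were called in none.

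**Figure D2:**
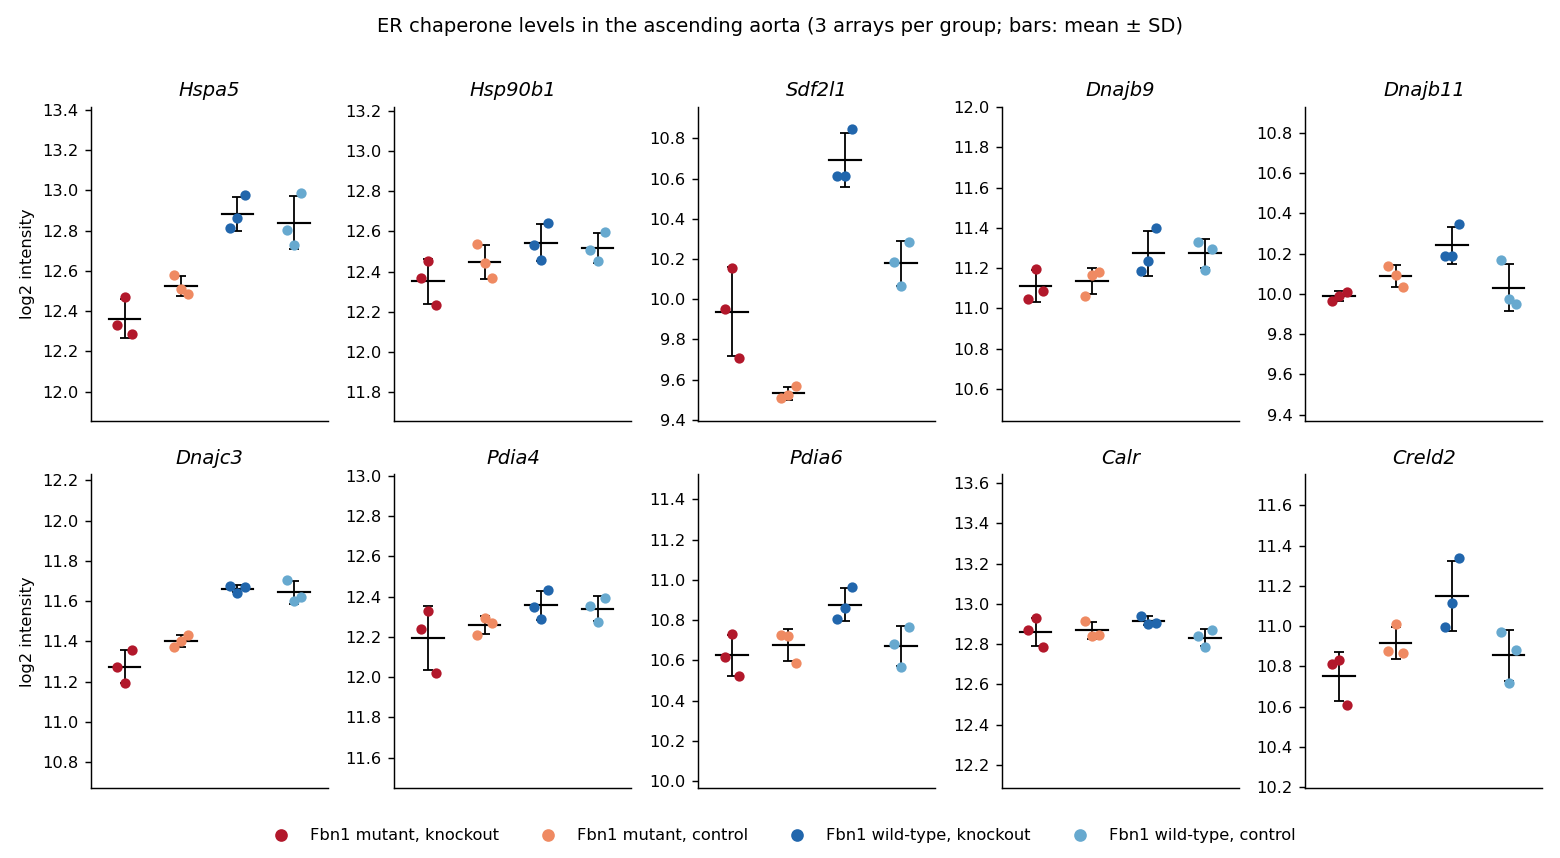
Log2 intensity of each chaperone on every array (points, 3 per group) with the group mean and SD (bars), every panel spanning the same number of log2 units. From left to right the groups are mutant knockout, mutant control, wild-type knockout and wild-type control; Sdf2l1, Hspa5 and Dnajc3 show both mutant groups below the wild-type group of the same treatment.

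Hspa5 encodes BiP, the Hsp70 of the ER lumen, and lies on chromosome 2 from 34772090 to 34776529. Its log2 intensity was 12.33, 12.47 and 12.29 in the mutant knockout, 12.81, 12.86 and 12.98 in the wild-type knockout, 12.58, 12.51 and 12.48 in the mutant control, and 12.80, 12.73 and 12.99 in the wild-type control. Every mutant array read below every wild-type array, whatever the treatment. How many of all genes separate in this way was not counted, here or for the genes below. In the knockouts the mutant mean was 12.36 ± 0.10 and the wild-type mean 12.88 ± 0.08 (SD, n = 3 each), a difference of -0.52 ± 0.07 (SE, limma adjusted p = 0.00158) or 30.3% lower. In the controls the means were 12.52 ± 0.05 in mutants and 12.84 ± 0.13 in wild-types, a difference of -0.31 ± 0.07 (limma adjusted p = 0.0263). The call in the controls was lost without mutant control 2 (adjusted p = 0.0948), mutant control 3 (0.0647) or wild-type control 3 (0.0807), and without both Ucp1-high arrays (0.0839). Among knockouts it held under all 23 alternatives, with adjusted p-values up to 0.0133. Tgfbr2 deletion gave differences of -0.16 in mutants (95% interval -0.32 to -0.0025, adjusted p = 0.152) and 0.05 in wild-types (-0.11 to 0.20, adjusted p = 0.725), neither past the threshold. The order of group means was wild-type knockout, wild-type control, mutant control and mutant knockout, and the tests did not separate the first from the second or the third from the fourth.

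Sdf2l1 encodes a luminal protein that works in a complex with BiP and J-domain proteins, and lies on chromosome 16 from 17130138 to 17132383. Of the 10 it spanned the widest range over the arrays, 1.34 log2 units. Its values were 9.95, 10.15 and 9.71 in the mutant knockout, 10.61, 10.61 and 10.85 in the wild-type knockout, 9.51, 9.52 and 9.57 in the mutant control, and 10.19, 10.06 and 10.29 in the wild-type control. The wild-type knockout was highest and the mutant control lowest, and in each pair that differed in 1 factor the groups did not overlap. The mutant knockout overlapped the wild-type control, and the difference there was -0.24 (95% interval -0.46 to -0.02, limma adjusted p = 0.105), which passed without mutant knockout 2 (-0.35, adjusted p = 0.0263).

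Sdf2l1 rose with Tgfbr2 deletion in both genotypes. In mutants it averaged 9.94 ± 0.22 in the knockout and 9.53 ± 0.03 in the control (SD, n = 3 each), a rise of 0.41 ± 0.10 or 1.32-fold (limma adjusted p = 0.0216). In wild-types it averaged 10.69 ± 0.13 in the knockout and 10.18 ± 0.11 in the control, a rise of 0.51 ± 0.10 or 1.43-fold (adjusted p = 0.00383). The 2 rises differed by -0.11 ± 0.14 (95% interval -0.41 to 0.20, adjusted p = 0.74). With the Fbn1 mutation the level was lower in both treatments, the difference being -0.75 ± 0.10 in knockouts (40.6% lower, adjusted p = 0.00118) and -0.65 ± 0.10 in controls (36.1% lower, adjusted p = 0.00363). The rise in mutants was lost without mutant knockout 1 (adjusted p = 0.0591), mutant knockout 2 (0.0759), mutant control 1 (0.062) or mutant control 2 (0.0676), and without both Ucp1-high arrays (0.0784). The other 3 calls held under all 23 alternatives.

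Dnajc3, or p58IPK, is a J-domain partner of BiP that is also known as an inhibitor of PERK, and lies on chromosome 14 from 118937932 to 118981702. It read 11.27, 11.19 and 11.36 in the mutant knockout, 11.67, 11.64 and 11.67 in the wild-type knockout, 11.37, 11.40 and 11.43 in the mutant control, and 11.71, 11.60 and 11.62 in the wild-type control. As with Hspa5, no mutant array reached a wild-type array. The mutation went with a difference of -0.39 ± 0.05 in knockouts (23.6% lower, limma adjusted p = 0.00118) and of -0.24 ± 0.05 in controls (15.4% lower, adjusted p = 0.0187). The call in the controls was lost without mutant control 1 (adjusted p = 0.0589), mutant control 2 (0.0707) or wild-type control 1 (0.0571). Deletion of Tgfbr2 gave -0.13 in mutants (95% interval -0.24 to -0.02, adjusted p = 0.113), where the groups did not overlap, and 0.02 in wild-types (-0.09 to 0.13, adjusted p = 0.848). The fall in mutants passed the threshold with each array centred on its median (-0.17, adjusted p = 0.0455) and with array weights (-0.15, adjusted p = 0.0334). Mutant knockout against wild-type control gave -0.37 for Dnajc3 (adjusted p = 0.00038) and -0.48 for Hspa5 (adjusted p = 0.000705). The 2 probe sets of Dnajc3 hold identical values, so they give no second measurement.

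Dnajb11 (ERdj3) is a secreted and luminal J-domain protein that brings unfolded clients to BiP, on chromosome 16 from 22857845 to 22879634. It read 9.97, 9.99 and 10.01 in the mutant knockout, 10.19, 10.19 and 10.35 in the wild-type knockout, 10.14, 10.09 and 10.03 in the mutant control, and 10.17, 9.98 and 9.95 in the wild-type control. The wild-type knockout stood above the other 3 groups, which overlapped in part. The level rose with deletion in wild-types by 0.21 ± 0.07 (1.16-fold, limma adjusted p = 0.0391). In mutants the difference was -0.10 ± 0.07 (95% interval -0.24 to 0.04, adjusted p = 0.311), with every knockout array below every control array. Among knockouts the mutant was lower, with a difference of -0.25 ± 0.07 (adjusted p = 0.039), and among controls the difference was 0.06 ± 0.07 (adjusted p = 0.631). The rise in wild-types was lost without any 1 of 7 arrays, which were wild-type knockout 1 and 3, wild-type control 2 and 3, mutant knockout 1 and 2 and mutant control 2, with adjusted p-values of 0.0505 to 0.159, and without both Ucp1-high arrays (0.0598). The difference among knockouts was lost without any 1 of another set of 7, the 6 knockout arrays and mutant control 2 (adjusted p up to 0.148), and without both Ucp1-high arrays (0.142).

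Dnajb9 (ERdj4), a J-domain partner known to restrain the sensor IRE1, lies on chromosome 12 from 44205897 to 44210068 and was called in no comparison. It read 11.04, 11.20 and 11.09 in the mutant knockout, 11.18, 11.24 and 11.40 in the wild-type knockout, 11.06, 11.17 and 11.18 in the mutant control, and 11.33, 11.19 and 11.30 in the wild-type control. The mutant difference was -0.16 ± 0.07 in knockouts (95% interval -0.31 to -0.02, limma adjusted p = 0.19) and -0.14 ± 0.07 in controls (-0.28 to 0.0092, adjusted p = 0.24). The intervals of the knockout effect were -0.17 to 0.12 in mutants and -0.15 to 0.15 in wild-types.

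Hsp90b1 encodes GRP94, the Hsp90 of the ER, on chromosome 10 from 86690841 to 86705444. Its levels were 12.37, 12.45 and 12.23 in the mutant knockout, 12.53, 12.46 and 12.64 in the wild-type knockout, 12.54, 12.44 and 12.37 in the mutant control, and 12.51, 12.45 and 12.60 in the wild-type control. Among knockouts the mutant arrays lay just below the wild-type arrays without overlap, the difference being -0.19 ± 0.07 (95% interval -0.35 to -0.04, limma adjusted p = 0.143). The other groups overlapped, with a mutant difference of -0.07 in controls (adjusted p = 0.591) and knockout effects of -0.10 in mutants (adjusted p = 0.366) and 0.03 in wild-types (adjusted p = 0.833).

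The disulfide isomerases Pdia4 (ERp72) and Pdia6 (P5) form and reshuffle disulfide bonds, and PDIA6 is known to bind BiP. Pdia6, on chromosome 12 from 17266589 to 17284785, read 10.62, 10.73 and 10.52 in the mutant knockout, 10.80, 10.86 and 10.96 in the wild-type knockout, 10.73, 10.72 and 10.59 in the mutant control, and 10.68, 10.56 and 10.77 in the wild-type control. Only the wild-type knockout stood apart from the other groups. It exceeded the mutant knockout (mutant minus wild-type -0.25 ± 0.07, limma adjusted p = 0.0601) and the wild-type control (0.20 ± 0.07, adjusted p = 0.0652) without passing the threshold in either. The first passed under 6 of 23 alternatives (adjusted p down to 0.041), among them without wild-type control 3 (0.0496) or mutant knockout 2 (0.0471). The second passed under 2, with array weights (0.031) and without wild-type control 3 (0.0449). Pdia4, on chromosome 6 from 47796141 to 47813512, read 12.24, 12.33 and 12.02 in the mutant knockout, 12.35, 12.29 and 12.44 in the wild-type knockout, 12.21, 12.30 and 12.27 in the mutant control, and 12.35, 12.27 and 12.40 in the wild-type control. Its groups overlapped in all 5 pairwise comparisons, and the mutant differences were -0.16 in knockouts (adjusted p = 0.24) and -0.08 in controls (adjusted p = 0.518). A second probe set of Pdia4 read only 7.01 to 7.52, near the brightness filter of 7.31.

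Creld2, whose product interacts with disulfide isomerases and is known as an ER stress-inducible protein, lies on chromosome 15 from 88819646 to 88826681. It read 10.81, 10.83 and 10.61 in the mutant knockout, 10.99, 11.11 and 11.34 in the wild-type knockout, 10.88, 11.01 and 10.87 in the mutant control, and 10.97, 10.72 and 10.88 in the wild-type control. The wild-type knockout had the highest mean, and its lowest array overlapped the mutant control. Creld2 rose with deletion in wild-types by 0.29 ± 0.09 (1.23-fold, limma adjusted p = 0.0446), while the difference in mutants was -0.17 ± 0.09 (95% interval -0.37 to 0.03, adjusted p = 0.235), with every knockout array below every control array. Among knockouts the mutant was lower, with a difference of -0.40 ± 0.09 (24.2% lower, adjusted p = 0.0254), and among controls the difference was 0.06 (adjusted p = 0.726). The rise in wild-types was lost without any 1 of 9 arrays, all except wild-type knockout 1, wild-type control 1 and mutant knockout 3, with adjusted p-values up to 0.179, and without both Ucp1-high arrays (0.0651). The difference among knockouts was lost without mutant knockout 1 (0.0592), mutant knockout 3 (0.0818), wild-type knockout 2 (0.0569) or wild-type knockout 3 (0.0954), and without both Ucp1-high arrays (0.0713).

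Calr encodes calreticulin, the lectin that holds glycoproteins in the folding cycle and binds calcium, on chromosome 8 from 84842088 to 84846931. It varied least of the 10, by 0.156 log2 units over the 12 arrays. It read 12.87, 12.93 and 12.79 in the mutant knockout, 12.94, 12.90 and 12.91 in the wild-type knockout, 12.91, 12.84 and 12.85 in the mutant control, and 12.84, 12.79 and 12.87 in the wild-type control. Its widest difference between groups was 0.08 ± 0.05, with deletion in wild-types (95% interval -0.02 to 0.19, limma adjusted p = 0.275). The groups did not overlap there. The knockout effect in mutants minus that in wild-types was -0.09 (adjusted p = 0.536). Calr carries the ER stress response element shown above, as do Hsp90b1 and Pdia6, which were not called either. Of the 6 genes with the element, Hspa5, Dnajc3 and Creld2 were called in at least 1 comparison, against the 36.0% of all genes, and Sdf2l1 was called in 4 with neither form of it in its window.

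**Figure D3:**
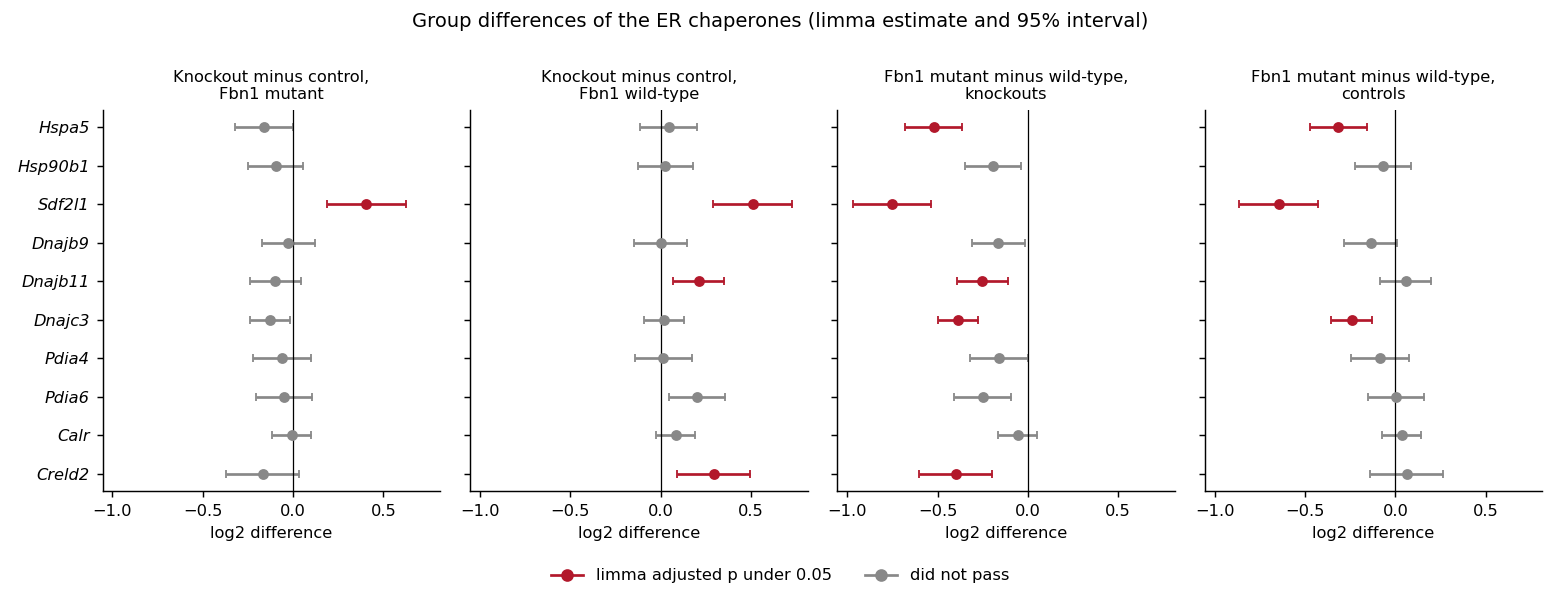
Log2 difference of each chaperone with its 95% interval from limma in 4 comparisons; red marks an adjusted p under 0.05 over all 14944 genes tested. In the knockouts all 10 estimates of mutant minus wild-type lie below 0 and 5 are red, and Sdf2l1 is red in all 4 panels.

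Most of the chaperones varied together between arrays of a group, though less so in the mutant control and on array 1 of the mutant knockout. After each group mean was taken off, 38 of the 45 pairs of chaperones correlated above 0 over the 12 arrays, with a median Pearson r of 0.61, and 26 pairs exceeded 0.5. Sdf2l1 with Pdia4 was highest (0.95), followed by Hspa5 with Pdia6 (0.92). Dnajc3 was the exception, with 7 of its 9 correlations below 0, down to -0.58 with Calr, although its group means followed those of Hspa5. In the mutant knockout, array 2 read higher than array 3 in all of the chaperones except Dnajb11 and Dnajc3. In the wild-type control, Hspa5, Sdf2l1 and Pdia6 were highest on array 3, whereas Dnajb11 and Creld2 were highest on array 1. In each correlation the values of both genes come from the same 12 hybridisations, so they share RNA and array, and no test was made of them. Pairs of other genes were not correlated in this way, so the likeness is not shown to be particular to the chaperones.

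**Figure D4:**
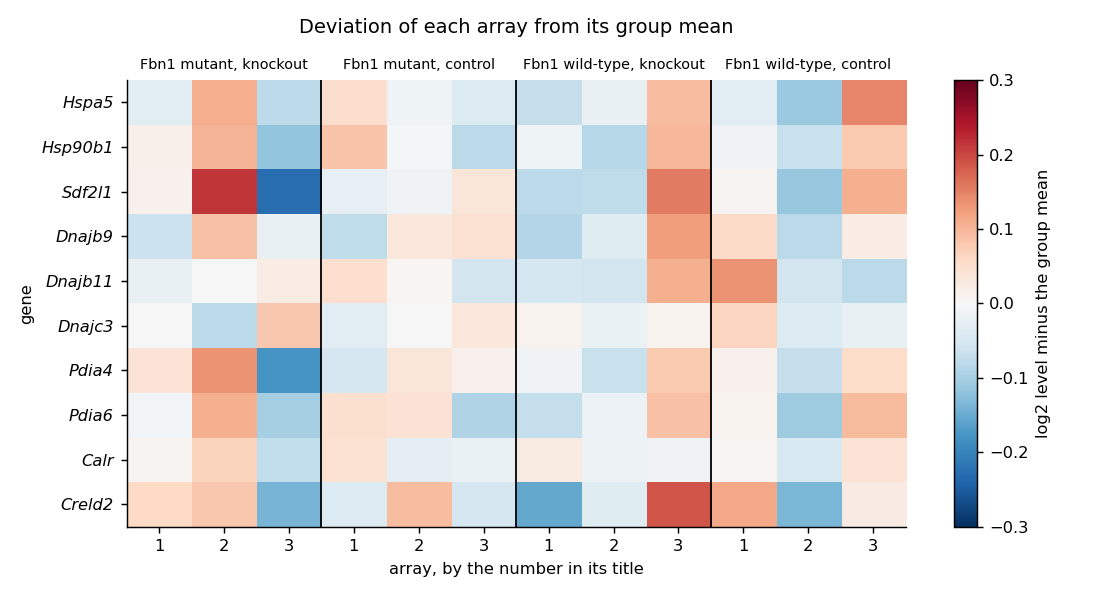
Log2 level of each chaperone on each array minus the mean of its group, in blocks for mutant knockout, mutant control, wild-type knockout and wild-type control. Red is above and blue below the group mean. Most genes of a column share a colour, except in the mutant control and on array 1 of the mutant knockout. Dnajc3 is blue on array 2 and red on array 3 of the mutant knockout, opposite to Hspa5 and Sdf2l1.

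In aortic tissue, fewer cells of a type and less RNA per cell cannot be told apart. Markers of other cells moved with some of these groups. With deletion 7.66% of all genes rose and 5.77% fell in mutants, against 9.17% and 9.66% in wild-types. In mutants 2.80% of all genes were higher and 3.16% lower between knockouts, and 3.17% and 3.33% between controls. For mutant knockout against wild-type control the shares were 11.4% higher and 11.9% lower. Of 12 macrophage markers 6 rose with deletion in mutants and 11 in wild-types, and 5 were lower in mutant than in wild-type knockouts. Their summed linear intensity was 22864 to 23842 in the mutant knockout, 28565 to 31658 in the wild-type knockout, 14225 to 20336 in the mutant control and 14841 to 18155 in the wild-type control. Of 10 endothelial markers 6 rose with deletion in either genotype. Of 8 cell division markers 1 rose with deletion in mutants and 8 in wild-types, and 7 were higher in mutant than in wild-type controls. The cell division sum was 3589 to 5465 in the mutant knockout, 4555 to 5516 in the wild-type knockout, 3284 to 4183 in the mutant control and 1952 to 2117 in the wild-type control. Of 9 fibroblast markers 2 rose and 1 fell with deletion in mutants and 4 rose in wild-types (median 0.28), and 1, Lum, was lower in mutant than in wild-type knockouts. Their sum was 56317 to 60729 in the mutant knockout, 64878 to 69356 in the wild-type knockout, 55712 to 62110 in the mutant control and 54920 to 60568 in the wild-type control. Of 10 heart muscle markers 3 rose and 1 fell with deletion in mutants, 2 rose and 1 fell in wild-types, and 8 were higher and 1 lower in mutant knockout than in wild-type control. Of 20 immediate early genes, which respond within minutes to handling or stimulation of tissue, 5 rose with deletion in mutants and 2 in wild-types, and 10 were higher in mutant knockout than in wild-type control. Of 7 adipocyte markers tested 2 rose with deletion in mutants and 1 in wild-types. Between knockouts 1 gene each of the heart muscle, immediate early and adipocyte lists was called, higher in mutants. These were Myh7 (0.34, limma adjusted p = 0.00991), Nr4a3 (0.68, adjusted p = 0.0254) and Ppargc1a (0.70, adjusted p = 0.00209). Plasma cells are rich in ER, and 6 of 11 plasma and B cell markers measured were bright enough to test. Of the 6, 1 rose with deletion in mutants (Cd79b, 0.15, limma adjusted p = 0.0463) and 1 in wild-types (Sdc1, 0.40, adjusted p = 0.00374), and 0 were called between genotypes. The group means of Sdc1, which other cells express too, were 10.18 in the mutant knockout, 10.35 in the wild-type knockout, 10.12 in the mutant control and 9.96 in the wild-type control. Mzb1 averaged 8.04 to 8.19 and Derl3 8.24 to 8.46 over the groups, while Jchain and Cd79a averaged 5.65 to 6.00, below the filter of 7.31. The part of these cells and genes in the chaperone differences was not tested.

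The sensors and transcription factors that control ER chaperones were called in both directions. Of all genes 2.80% were higher and 3.16% lower in mutants between knockouts, and 3.17% and 3.33% between controls. With deletion 7.66% of all genes rose and 5.77% fell in mutants, and 9.17% rose and 9.66% fell in wild-types. Of 17 tested, 2 were higher and 0 lower in mutant than in wild-type knockouts, Creb3l1 (0.28, limma adjusted p = 0.0474) and the NF-Y subunit Nfyc (0.21, adjusted p = 0.0216), and the median was -0.01. In the controls 1 was lower, the NF-Y subunit Nfya (-0.18, adjusted p = 0.0261). With deletion 3 of 17 fell in mutants, Creb3l2, Eif2ak3 and Mbtps1, and 2 in wild-types, Creb3l2 and Atf6b. Eif2ak3, which encodes PERK, fell by 0.25 in mutants (adjusted p = 0.0118), and the CREB family member Creb3l2 fell by 0.27 in mutants and by 0.23 in wild-types. Xbp1, the transcription factor downstream of IRE1, was called in 1 comparison, with mutant knockout against wild-type control at -0.27 ± 0.07 (adjusted p = 0.02), and its mutant differences were -0.21 in knockouts (adjusted p = 0.123) and -0.14 in controls (adjusted p = 0.271). The count between knockouts was 0 without wild-type knockout 1 or mutant knockout 1 or 2, and between controls 0 without wild-type control 2 or mutant control 2 or 3. With deletion in wild-types it was 1 without wild-type knockout 1 or 3 or wild-type control 2 or 3. In mutant knockout against wild-type control 2 of 17 were higher and 4 lower, where 11.4% and 11.9% of all genes were. Those 6 calls were 2 to 9 under the alternatives. These are levels of whole transcripts, and splicing of Xbp1 and cleavage of ATF6 were not measured.

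Other luminal folding genes were called in both directions. In knockouts 4 of 42 were lower in mutants than in wild-types and 0 higher: Hyou1, Manf, Ero1b and Dnajc10. There 3.16% of all genes were lower and 2.80% higher. Hyou1 (GRP170), a nucleotide exchange factor of BiP, read 10.66, 10.81 and 10.74 in the mutant knockout, 10.97, 11.15 and 11.21 in the wild-type knockout, 10.88, 10.75 and 10.73 in the mutant control, and 11.29, 11.16 and 11.31 in the wild-type control. As for Hspa5, no mutant array of Hyou1 reached a wild-type array, with differences of -0.37 in knockouts (limma adjusted p = 0.00949) and -0.47 in controls (adjusted p = 0.00355). Manf, an ER stress-inducible protein that binds BiP, was lower in mutant knockouts (-0.33, limma adjusted p = 0.017), and its difference in controls was -0.23 (adjusted p = 0.0766).

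In controls 7 of the 42 were higher in mutants and 3 lower, where 3.17% and 3.33% of all genes were. With deletion 0 rose and 6 fell in mutants, where 7.66% and 5.77% of all genes did. In wild-types 7 rose and 4 fell with deletion, where 9.17% and 9.66% of all genes did. The prolyl isomerase Ppic, a cyclophilin of the ER, read 12.31, 12.23 and 12.27 in the mutant knockout, 12.36, 12.25 and 12.32 in the wild-type knockout, 12.64, 12.68 and 12.47 in the mutant control, and 11.84, 11.97 and 11.75 in the wild-type control. It fell by 0.33 with deletion in mutants (limma adjusted p = 0.00908) and rose by 0.45 in wild-types (adjusted p = 0.000644), and the 2 effects differed by -0.79 (adjusted p = 0.00238). The oxidoreductase Pdia5 was higher in mutant than in wild-type controls by 0.27 (adjusted p = 0.00355), opposite in sign to Hspa5. Between controls the 10 calls of this list were 4 without mutant control 2 and 5 without wild-type control 2. Between knockouts the 4 calls were 1 without wild-type knockout 1 or mutant knockout 1 or 2, and 2 without wild-type knockout 2 or 3. The 11 calls with deletion in wild-types were 4 to 6 without any 1 of the 6 wild-type arrays, and the 6 in mutants were 3 without mutant control 2.

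Secreted matrix genes, the main cargo of this machinery in the vessel wall, were called in the opposite direction to the chaperones in the controls. Between controls 3.17% of all genes were higher and 3.33% lower in mutants, and between knockouts 2.80% and 3.16%. With deletion 7.66% of all genes rose and 5.77% fell in mutants, against 9.17% and 9.66% in wild-types. Of 30 matrix genes tested, 16 were higher in mutant than in wild-type controls and 1 was lower, with a median of 0.28. Among the higher were Tnc (1.49), Eln (0.75) and Col1a1 (0.68). In knockouts 1 was higher and 6 were lower in mutants, with a median of -0.06, and these 7 calls were 3 without mutant knockout 1 and 4 without mutant knockout 3 or any 1 wild-type knockout array. With deletion 3 of the 30 rose and 16 fell in mutants (median -0.22), while 10 rose and 4 fell in wild-types (median 0.09). Among the 38 ER to Golgi carriers 2 were higher in mutant controls and 0 lower, the KDEL receptors Kdelr3 (0.58, limma adjusted p = 0.0047) and Kdelr1 (0.26, adjusted p = 0.00985), which return escaped chaperones to the ER. The count was 1 without mutant control 2. In knockouts 1 carrier was lower in mutants, Lman1 (-0.23, adjusted p = 0.0477), and 0 were without any 1 of 10 arrays, all except mutant knockout 2 and 3. With deletion in mutants 10 of 38 carriers fell and 1 rose, with the smallest p for the coat subunit Sec24d (-0.39, adjusted p = 0.000782), and these 11 calls were 5 without mutant control 1 or 2 and 6 without mutant knockout 1.

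The machinery of translocation and of degradation was called in both directions. Between knockouts 2.80% of all genes were higher and 3.16% lower in mutants, and between controls 3.17% and 3.33%. Among 33 genes for the translocon, signal peptidase and N-glycan transfer, 2 were lower in mutant than in wild-type knockouts, Spcs3 (-0.33) and Rpn2 (-0.20), and 1 was higher in mutant controls, Ssr2 (0.27). Among 26 genes of ER-associated degradation, 3 were lower in mutant knockouts, Ube2g2, Ubxn4 and Derl2 (-0.21 to -0.23). Between controls Erlec1 was higher in mutants (0.25, limma adjusted p = 0.0293) and Ube2g2 lower (-0.20, adjusted p = 0.0365), 0 to 3 calls under the alternatives. In mutant knockout against wild-type control 7 of the 26 were lower and 0 higher, where 11.9% and 11.4% of all genes were. Those 7 calls were 4 to 11 under the alternatives. Leaving out any 1 knockout array left 1 call between knockouts in the first list, and in the second left 0 (mutant knockout 1 or 2, wild-type knockout 1 or 3) or 1 (mutant knockout 3, wild-type knockout 2). The second list also had 1 without wild-type control 1 or 2, and Ssr2 was lost without wild-type control 2 or mutant control 2 or 3. Herpud1, a stress-inducible member of this list, fell with deletion by 0.25 in mutants and by 0.23 in wild-types (limma adjusted p = 0.0325 and 0.0344). The first call was lost without any 1 of mutant knockout 1 and 3 and mutant control 1, 2 and 3, and the second without wild-type knockout 3 or wild-type control 1 or 2. Without both Ucp1-high arrays neither was called (0.1 and 0.0592). With deletion 4 genes of the list fell and 0 rose in mutants, with 0 calls without mutant knockout 1 or mutant control 1. In wild-types 2 fell and 0 rose, with 0 calls without wild-type knockout 3 or wild-type control 2. Of all genes 7.66% rose and 5.77% fell with deletion in mutants, and 9.17% rose and 9.66% fell in wild-types. Of 29 targets of the integrated stress response, which acts through ATF4, 5 rose and 3 fell with deletion in mutants and 3 rose and 3 fell in wild-types. The 8 calls in mutants were 5 without mutant control 1 and 4 without mutant control 2. Psat1, an enzyme of serine synthesis, rose by 0.32 in mutants and by 0.60 in wild-types, and Nupr1 fell by 0.96 in mutants and by 0.34 in wild-types.

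Cytosolic and mitochondrial heat shock genes, which respond to a separate factor, HSF1, shared the direction of the chaperones between genotypes. Of 24 tested, 12 were lower in mutant than in wild-type knockouts (median -0.27) and 13 in the controls (median -0.34). In either, 0 were higher. The shares of all genes called lower in mutants were 3.16% between knockouts and 3.33% between controls. The Hsp110 Hsph1 read 9.98 to 10.38 in the mutant knockout, 11.21 to 11.30 in the wild-type knockout, 10.10 to 10.45 in the mutant control, and 11.42 to 11.54 in the wild-type control. Its mutant arrays lay below all wild-type arrays, with differences of -1.12 in knockouts (limma adjusted p = 0.000134) and -1.19 in controls (adjusted p = 0.000126). The 12 calls between knockouts were 6 without mutant knockout 1. With deletion 2 of the 24 rose in mutants (4 calls without mutant knockout 3), where 7.66% of all genes rose. In wild-types 2 fell (0 without wild-type control 2 or 3 or wild-type knockout 1 or 2), where 9.66% of all genes fell.

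**Figure D5:**
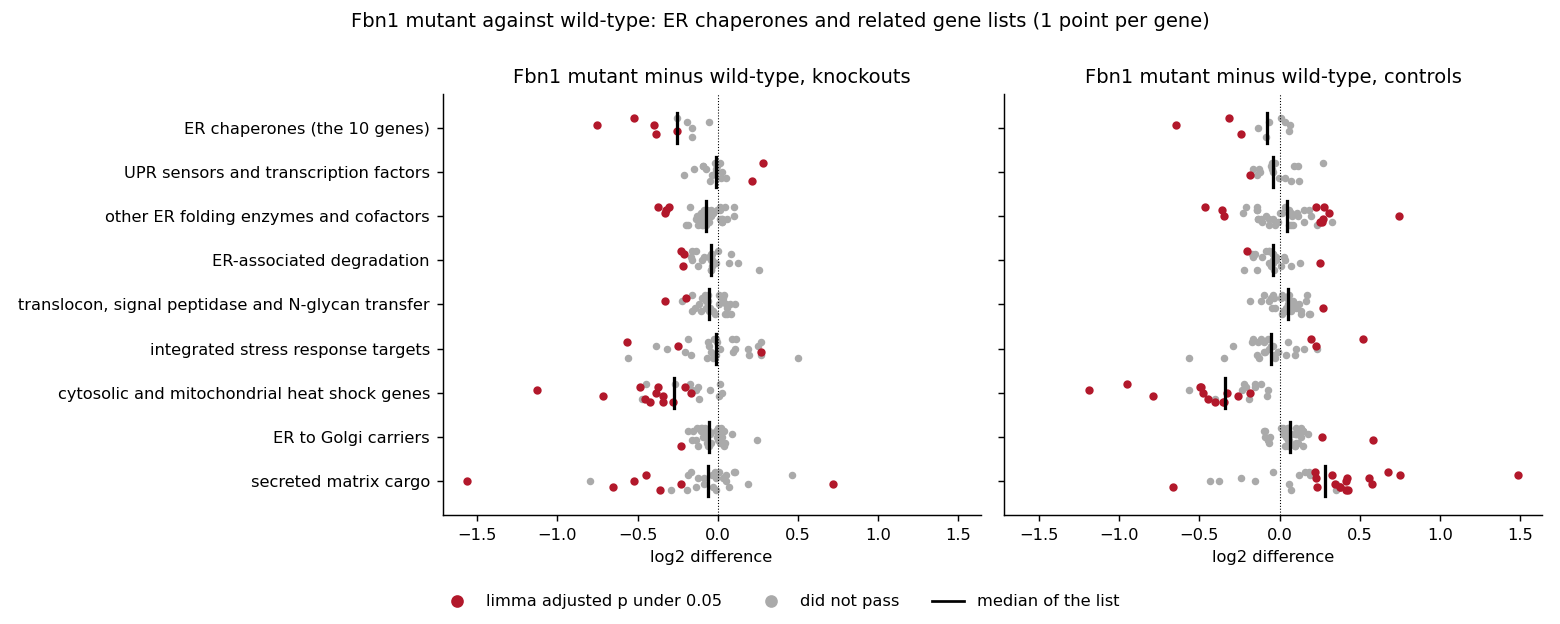
Log2 difference of mutant minus wild-type for the 10 ER chaperones and 8 related gene lists, in knockouts (left) and in controls (right), with 1 point per tested gene, red for an adjusted p under 0.05 in limma and a black line at the median. The chaperone median is -0.25 in knockouts and -0.08 in controls, the heat shock medians are -0.27 and -0.34, and the matrix cargo medians are -0.06 and 0.28.

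The 8 genes outside the 10 whose levels over the 12 arrays were most like the mean of the chaperones were Atp6v0a2, Chst11, Arntl, Bdh2, Gxylt2, Fdps, Hspd1 and Hsd17b7, with Pearson r of 0.88 to 0.92. Over the 4 group means r was 0.91 to 1.00 for the same genes. They were picked for likeness over these same arrays, so this r and their group differences follow from the choice and are no separate result. Arntl was lower in mutant than in wild-type knockouts (-0.67, limma adjusted p = 0.0237). Fdps, an enzyme of isoprenoid and sterol synthesis, was also lower there (-0.85, limma adjusted p = 0.000432), and so was Hsd17b7, another sterol synthesis enzyme (-0.86, adjusted p = 0.00234). Hspd1, the mitochondrial chaperonin, belongs to the heat shock list above. The mean of the 10 chaperones, each centred on its own mean, was -0.13, -0.05 and -0.21 in the mutant knockout, 0.13, 0.14 and 0.28 in the wild-type knockout, -0.09, -0.08 and -0.11 in the mutant control, and 0.08, -0.04 and 0.09 in the wild-type control. By this mean the wild-type knockout was highest, the mutant knockout and mutant control overlapped, and the wild-type control lay between them and the wild-type knockout.

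Few of the other genes that carry the ER stress response element in their promoter were called, and in both directions. Of 15 measured besides the 10 chaperones, 12 were tested, and 1 was lower in mutants both among knockouts and among controls, Ero1b (-0.32, limma adjusted p = 0.0203, and -0.36, adjusted p = 0.0132), an oxidase that supplies disulfide bonds in the ER. The call was lost between knockouts without any 1 wild-type knockout array or mutant knockout 1 or 2, and between controls without wild-type control 2. Deletion called the same 2 of these 12 in both genotypes. Zfp57 went upward (0.58 in mutants and 0.76 in wild-types) and Spats2l downward (-0.47 in mutants and -0.52 in wild-types). With deletion 7.66% of all genes rose and 5.77% fell in mutants, against 9.17% and 9.66% in wild-types. Between genotypes 3.16% of all genes were lower in mutant knockouts and 3.33% in mutant controls.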

How the data were processed

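Total RNA of mouse ascending aorta had been hybridised to Affymetrix arrays, 3 per group. Linear intensity values deposited by the authors had been made with RMA in Partek 6.4, per the submitters' processing notes; no scanner file was used here. The intensities were set to log2, and of 35556 probe sets 21789 had 1 gene symbol, 1621 several and 12146 none; 21698 matched RefSeq by Entrez number. The probe set of highest mean stood for each of 19938 genes, and 14944 above the 25th percentile (log2 7.31) were tested. One limma 3.58.1 fit (R 4.3.3) of the 4 group means, with 8 residual and 4.54 prior degrees of freedom, gave all 6 comparisons, adjusted by Benjamini-Hochberg. The fit was tested on simulated data. Alternatives changed the brightness filter, scaling, probe set, variance model, array weights, replicate block and arrays used. With 3 arrays a group, their number sets the precision.

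The members, lists and alternatives were chosen with earlier results of these data known. Named were all members, up to 4 genes of smallest p per list and comparison, and the 8 genes most like the members. Same-numbered arrays of different groups were checked for pairing (18 correlations of -0.22 to 0.24, 3 over 0.1), so the numbers were not used as pairs. Promoter windows came from RefSeq (GRCm38.p6), matched by symbol for all 10 members; protein sequences were not used here.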

Additional observations from a re-analysis of the deposited data

Results flagged for a closer look

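In wild-types, both Dnajb11 and Creld2 had every knockout array above every control array. In mutants, both had every knockout array below every control array. How many of all genes show this pattern was not counted. The knockout effect in mutants minus that in wild-types was -0.31 ± 0.09 for Dnajb11 (SE, limma adjusted p = 0.124) and -0.46 ± 0.13 for Creld2 (adjusted p = 0.113), so the test of the difference did not pass for either.

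Among the related lists, the same difference passed the test for 6 of the genes named by rule. It was -0.79 for the ER cyclophilin Ppic (limma adjusted p = 0.00238), -0.62 for the stress target Nupr1 (adjusted p = 0.00289), -0.79 for Col15a1 (adjusted p = 0.00309), -0.94 for Eln (adjusted p = 0.00537), -0.60 for Col5a2 (adjusted p = 0.00581) and -0.64 for Col3a1 (adjusted p = 0.012).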

How the results depend on the processing

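Each of the 60 chaperone differences was recomputed under up to 23 alternatives, 1370 values in all. Direction and side of the threshold were kept in 1271, 55 lost the call, 11 gained it and 33 changed sign, 0 of them from a called value. Calls of Sdf2l1 with deletion in wild-types (adjusted p 0.00113 to 0.0207) and between genotypes in controls (0.00131 to 0.0221) and knockouts (0.000373 to 0.00912) held throughout, as did Hspa5 and Dnajc3 between knockouts (up to 0.0133 and 0.0106).

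The chaperones called with deletion in wild-types were 1 in place of 3 with each array centred on its median, without both Ucp1-high arrays, and with only the groups of the comparison; with deletion in mutants they were 2 in place of 1 with median centring and with array weights, where Dnajc3 fell as well, and 0 without both Ucp1-high arrays. Between controls 1 was called in place of 3 with only the groups of the comparison, and between knockouts 3 in place of 5 without both Ucp1-high arrays. Leaving out 1 array gave 1 to 3 with deletion in wild-types, 0 to 1 in mutants, 1 to 3 between controls and 3 to 6 between knockouts. The cause was not tested.

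The replicate number is not shown to pair the arrays. With it as a replicate block, 1 chaperone (Sdf2l1) was called in place of 3 with deletion in wild-types, since Dnajb11 (adjusted p = 0.0583) and Creld2 (0.0729) were lost in limma, and the Dnajb11 call between knockouts was lost as well (0.0593). It changed no other chaperone call.

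Values that changed sign lay near 0. Centred on array medians, Dnajb9 with deletion in wild-types was -0.0103 and Calr in mutant knockout against wild-type control -0.016. With the mean of its probe sets, Pdia4 with deletion in wild-types was -0.0317. With array weights, Calr with deletion in mutants was 0.0197 and Pdia6 in mutant knockout against wild-type control 2e-04. Without both Ucp1-high arrays, Dnajb9 with deletion in mutants was 0.0285 and its difference of effects 0.0281. Leaving out 1 array, the effect of deletion in wild-types ranged from -0.0107 to 0.1187 for Hspa5, -0.0222 to 0.0708 for Hsp90b1, -0.0626 to 0.0448 for Dnajb9, -0.0026 to 0.0501 for Dnajc3 and -0.0224 to 0.0498 for Pdia4. In mutants it ranged from -0.0701 to 0.0061 for Dnajb9, -0.1284 to 0.0265 for Pdia4 and -0.0404 to 0.0304 for Calr. The difference of effects ranged from -0.2134 to 0.0086 for Sdf2l1, -0.0713 to 0.0361 for Dnajb9 and -0.1449 to 0.01 for Pdia4. Between controls the range was -0.0471 to 0.0538 for Pdia6 and -0.0069 to 0.1189 for Creld2. Mutant knockout against wild-type control ranged from -0.0817 to 0.0263 for Dnajb11, -0.1005 to 0.0033 for Pdia6 and -0.0049 to 0.0658 for Calr.

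With array weights the counts over all genes were 3687 in place of 2008 with deletion in mutants, 1568 in place of 970 between controls, 1687 in place of 890 between knockouts and 469 in place of 221 for the difference of effects. With only the groups of the comparison they were 1261 with deletion in mutants and 480 between controls. Without both Ucp1-high arrays they were 1082 with deletion in mutants, 409 between knockouts and 2181 in place of 3479 for mutant knockout against wild-type control. Leaving out 1 array gave 1836 to 2992 in place of 2814 with deletion in wild-types, 896 to 2146 in mutants, 349 to 1073 between controls, 382 to 1019 between knockouts, 107 to 202 for the difference of effects and 2299 to 3503 for mutant knockout against wild-type control. With each array centred on its median, 660 genes rose and 1373 fell with deletion in mutants (1145 and 863 without centring), 271 were higher and 649 lower between knockouts (418 and 472), 1165 and 2579 in mutant knockout against wild-type control (1702 and 1777), and 27 and 156 for the difference of effects (60 and 161). Of 1233 counts in the related lists, 989 stayed within 1.5 times.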
